A study of Mus musculus with 15 samples.

Results

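Saa3, Hp, Ptx3, Lcn2, Slpi, Lyz2, Chil3 and Chil1 are genes of acute-phase and secreted defence proteins. They were taken from the deposited table by symbol, with no measured value in the rule, and each symbol matched 1 row, so the set holds 8 of 47069 genes. The choice of the 8 genes was made with earlier results of these data known. Acute-phase proteins are released into blood and tissue when injury or infection is sensed. The liver makes most of them under the cytokines interleukin 6, interleukin 1 and tumour necrosis factor, whose signals run through the transcription factors STAT3, C/EBP and NF-kB. Saa3, Ptx3 and Lcn2 can also be made on the spot by macrophages, fibroblasts and epithelial cells, while lysozyme and the chitinase-like proteins come largely from macrophages and neutrophils. In an infarcted heart these cells clear dead muscle before a scar forms.

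Messenger RNA of the left ventricle was sequenced in 15 libraries from C57BL/6 mice, 5 in each of 3 groups. Hearts of the rHCI group had a myocardial infarct and, 7 days after it, an injection into the heart muscle of rHCI, a hydrogel of recombinant human collagen type I. The ventricle was taken 2 days after the injection. The PBS group was handled alike, with phosphate-buffered saline injected in place of the hydrogel. Sham mice had a sham operation and no treatment and were age-matched, at 10 weeks. No injection is labelled for them, and in the comparisons with Sham the effects of the infarct and of the injection therefore cannot be told apart. Hearts were perfused with saline before freezing, and the ventricle was ground as a whole, so scar, border and distant muscle are mixed in each library. In such bulk samples, fewer cells of a type and less RNA per cell cannot be told apart.

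The libraries held 32978702 to 103356830 counts. Levels are in CPM, which puts all libraries on the same total, after TMM scaling, which aligns the bulk of genes between libraries. Defining markers of heart muscle were high throughout, with 10 cardiomyocyte genes summing to 49962 to 76701 CPM in rHCI hearts, 47401 to 69082 CPM in PBS hearts and 94913 to 105554 CPM in Sham hearts. The sample descriptions carry a number taken here to name the sequencing run. It is the same in 12 libraries and differs in rHCI 1, PBS 6 and Sham 19. PBS 6 stood apart by lung transcripts. Its 11 lung epithelium markers summed to 79.8 CPM, against 2.30 to 3.58 CPM in the other PBS libraries. The sums were 2.15 to 3.15 CPM in rHCI libraries and 0.407 to 0.980 CPM in Sham libraries. Results are also given without PBS 6. PBS 6 was also the highest PBS library for Lcn2, Chil3 and Chil1. The library rHCI 11 stood apart for Chil3.

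C/EBP factors are textbook activators of acute-phase genes, and the RefSeq start regions of the genes were searched for their recognition letters TTGCNNAA, on both strands (TTNNGCAA on the other). RefSeq windows of 300 bases on GRCm38.p6, 250 before the annotated start and 50 after it, were at hand for 7 of the 8 genes, Hp being the other. The 4 windows with a match were those of Saa3, Slpi, Ptx3 and Lcn2, and 10.8% of all 32851 windows held one. The 250 bases before each start are shown, 5′ to 3′ on the strand of the gene, because Saa3, Slpi and Ptx3 were higher in infarcted hearts and Lcn2 was not called, with the C/EBP match in capitals.
Saa3 (chr7:46715677-46715926, minus strand): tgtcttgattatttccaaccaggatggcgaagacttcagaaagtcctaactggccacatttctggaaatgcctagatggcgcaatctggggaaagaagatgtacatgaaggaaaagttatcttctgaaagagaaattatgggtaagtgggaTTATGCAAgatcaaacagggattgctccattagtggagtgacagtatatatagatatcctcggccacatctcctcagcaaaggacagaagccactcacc
Slpi (chr2:164356508-164356757, minus strand): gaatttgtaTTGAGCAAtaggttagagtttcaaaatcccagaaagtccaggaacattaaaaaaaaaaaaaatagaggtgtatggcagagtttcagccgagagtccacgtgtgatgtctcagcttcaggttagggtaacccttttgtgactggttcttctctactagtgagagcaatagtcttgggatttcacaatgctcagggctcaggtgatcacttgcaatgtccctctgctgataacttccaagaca
Ptx3 (chr3:66219637-66219886, plus strand): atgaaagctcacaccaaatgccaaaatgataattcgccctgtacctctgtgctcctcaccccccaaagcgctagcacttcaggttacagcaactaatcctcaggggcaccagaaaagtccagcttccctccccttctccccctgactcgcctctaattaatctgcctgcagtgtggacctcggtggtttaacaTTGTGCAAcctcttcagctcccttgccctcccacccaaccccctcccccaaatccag
Lcn2 (chr2:32387740-32387989, minus strand): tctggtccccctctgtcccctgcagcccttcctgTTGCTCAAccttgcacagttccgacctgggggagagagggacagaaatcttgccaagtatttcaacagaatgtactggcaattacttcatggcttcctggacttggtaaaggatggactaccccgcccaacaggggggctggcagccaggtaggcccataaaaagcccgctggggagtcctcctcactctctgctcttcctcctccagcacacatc
Counted from the start base as 0, the matches lay at −99 to −92 in Saa3, −241 to −234 in Slpi, −57 to −50 in Ptx3 and −216 to −209 in Lcn2. An NF-kB pattern of GGG and CC with any 5 bases between them, searched on both strands, was found in Lcn2, Ptx3, Chil3 and Chil1, with 2 overlapping matches in Ptx3, and in 50.8% of all windows. The letters TTCNNNGAA of STAT sites, which read the same on both strands, were found in Chil3 and in 8.3% of all windows. These matches describe the letters in the windows and were not tested as binding sites. In the GENCODE M21 annotation of GRCm38 the gene models of Slpi and Lcn2 begin before the starts used here, so both printed windows lie wholly inside their models. That of Saa3 overlaps its model at the end, and that of Ptx3 lies before its model.

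Set against Sham hearts, PBS hearts had higher levels of 7 of the 8 genes at an adjusted p under 0.05 over 16207 genes (Benjamini-Hochberg, quasi-likelihood test of edgeR). Of all genes tested, 36.5% were called higher and 71.4% were called in either direction. An unadjusted p under 0.05 was reached by 73.5%. The exception was Lcn2. The PBS and Sham libraries did not overlap for the same 7 genes, and all 7 were higher in PBS. Of all genes tested, 58.7% had groups without overlap, and 31.5% had PBS higher. The median log2 fold change of the 8 genes was 4.32, and that of all genes tested was −0.01. Since the 8 genes were chosen with earlier results known, this contrast with all genes is a description and not independent support.

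**Figure D1:**
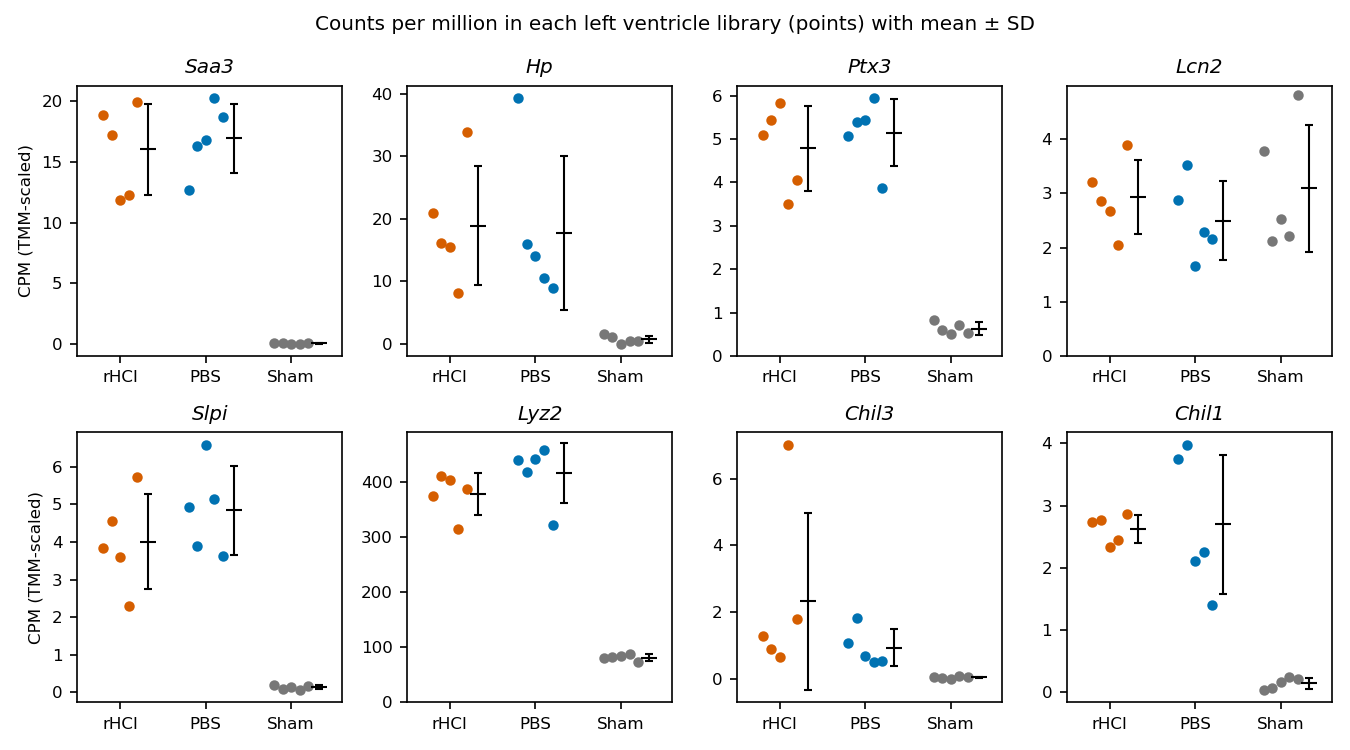
CPM of the 8 genes (y axis, linear, a scale per panel) in each library of the rHCI, PBS and Sham groups (points, 5 per group, in order of replicate number), with the group mean and SD in black. Every infarcted library lies above every Sham library for 7 genes, the Lcn2 groups overlap, and rHCI 11 at 7.01 CPM stands above all other libraries for Chil3.

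Saa3, an acute-phase apolipoprotein made mainly outside the liver in mice (ENSMUSG00000040026, GRCm38 chromosome 7, 46711998 to 46715700, minus strand), was almost absent from Sham hearts. It had 18.9, 17.2, 11.8, 12.3 and 19.96 CPM in rHCI 1, 3, 7, 11 and 13, 12.7, 16.3, 16.8, 20.3 and 18.7 CPM in PBS 2, 6, 9, 12 and 14, and 0.0271, 0.0408, 0, 0 and 0.0791 CPM in Sham 16, 17, 18, 19 and 20. The 5 Sham values rest on 11 counts in all, 7 of them in Sham 20, while the infarcted groups do not overlap with Sham and overlap with each other. The log2 fold change of PBS over Sham was 8.86 ± 0.27 (SE), with an interval of 8.27 to 9.45 and an adjusted p of 1.07e-10 by edgeR, the 10th largest rise of 16207. Without Sham 20, which leaves 4 counts in Sham, it was 9.75. The other serum amyloid A genes, which the liver makes in mice, were nearly absent. Saa1 had 1 count over the rHCI libraries, 2 over the PBS libraries and 3 over the Sham libraries. Saa2 had 0, 0 and 1 in the same order of groups, and Saa4 had 0, 3 and 0. Of the 50-base stretches of the Saa3 transcripts, 0.352% also occur in Saa1 and 0 in Saa2.

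Hp, haptoglobin (ENSMUSG00000031722, GRCm38 chromosome 8, 109575128 to 109579172, minus strand), binds haemoglobin set free from broken red cells. It had 20.9, 16.2, 15.4, 8.09 and 33.9 CPM in rHCI 1, 3, 7, 11 and 13, 39.2, 15.9, 14.04, 10.6 and 8.91 CPM in PBS 2, 6, 9, 12 and 14, and 1.54, 1.06, 0.0571, 0.510 and 0.463 CPM in Sham 16, 17, 18, 19 and 20. PBS 2 and rHCI 13 were the highest hearts, rHCI 11 and PBS 14 the lowest of their groups, and all 10 infarcted hearts were above the Sham hearts. The log2 fold change of PBS over Sham was 4.56 ± 0.54, with an adjusted p of 6.19e-06 by edgeR. Its interval, 3.38 to 5.74, was the widest of the 8 genes in this comparison, and the coefficient of variation was 50.5% in rHCI hearts, 69.5% in PBS hearts and 79.7% in Sham hearts. Cd163, the macrophage receptor that takes up haptoglobin bound to haemoglobin, went the other way, with 24.3 ± 3.63 CPM in rHCI hearts, 22.1 ± 1.36 CPM in PBS hearts and 34.9 ± 4.01 CPM in Sham hearts (SD, n = 5 each). It was lower in PBS than in Sham hearts by edgeR, with a log2 fold change of −0.66 ± 0.07 and an adjusted p of 3.77e-06.

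Ptx3, the long pentraxin (ENSMUSG00000027832, GRCm38 chromosome 3, 66219910 to 66225805, plus strand), is a soluble pattern recognition protein that also knits hyaluronan matrix together. It had 5.09, 5.43, 5.84, 3.51 and 4.06 CPM in rHCI 1, 3, 7, 11 and 13, 5.07, 5.39, 5.43, 5.95 and 3.88 CPM in PBS 2, 6, 9, 12 and 14, and 0.839, 0.592, 0.495, 0.706 and 0.520 CPM in Sham 16, 17, 18, 19 and 20. The lowest infarcted heart, rHCI 11, was still well above the highest Sham heart, Sham 16. The log2 fold change of PBS over Sham was 3.02 ± 0.16, with an adjusted p of 5.26e-09 by edgeR. Its partner in hyaluronan matrix, Tnfaip6, had 6.47 ± 2.37 CPM in rHCI hearts, 6.25 ± 0.831 CPM in PBS hearts and 0.999 ± 0.113 CPM in Sham hearts, and rose in PBS hearts by 2.66 ± 0.12 with an adjusted p of 1.23e-09 by edgeR.

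Lcn2, lipocalin 2 (ENSMUSG00000026822, GRCm38 chromosome 2, 32384633 to 32388252, minus strand), starves bacteria of iron by holding their siderophores and is widely induced in inflamed epithelium. It had 3.21, 2.85, 2.68, 2.04 and 3.89 CPM in rHCI 1, 3, 7, 11 and 13, 2.87, 3.53, 1.65, 2.29 and 2.15 CPM in PBS 2, 6, 9, 12 and 14, and 3.78, 2.12, 2.53, 2.22 and 4.82 CPM in Sham 16, 17, 18, 19 and 20. The 3 groups overlapped, and the highest of all 15 libraries was Sham 20. PBS over Sham gave a log2 fold change of −0.32 ± 0.25 with an interval of −0.86 to 0.22, that is a fold of 0.551 to 1.16, and an adjusted p of 0.258 by edgeR. With the sequencing run as a covariate the value was −0.59 (adjusted p = 0.0599 by edgeR), with library totals alone −0.05 (adjusted p = 0.876). PBS 6 and Sham 19 are each alone in their run here, so the covariate in effect sets both aside. Without PBS 6 the log2 fold change was −0.49. Slc22a17, a receptor of lipocalin 2, had 5.59 ± 1.12 CPM in rHCI hearts, 6.18 ± 0.359 CPM in PBS hearts and 3.17 ± 0.266 CPM in Sham hearts, and rose in PBS hearts by 0.96 ± 0.08 (adjusted p = 3.92e-07 by edgeR).

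Slpi, the secretory leukocyte peptidase inhibitor (ENSMUSG00000017002, GRCm38 chromosome 2, 164354070 to 164389095, minus strand), blocks neutrophil elastase and cathepsin G. It had 3.83, 4.55, 3.61, 2.31 and 5.74 CPM in rHCI 1, 3, 7, 11 and 13, 4.94, 3.89, 6.59, 5.16 and 3.63 CPM in PBS 2, 6, 9, 12 and 14, and 0.190, 0.102, 0.133, 0.0589 and 0.169 CPM in Sham 16, 17, 18, 19 and 20. PBS 9 was the highest heart, and rHCI 11 was the lowest infarcted heart, with no overlap with Sham. The log2 fold change of PBS over Sham was 5.11 ± 0.25, with an adjusted p of 2.22e-09 by edgeR. Transcripts of the proteases it inhibits were scarce. Elane, neutrophil elastase, had at most 8 counts in any library and was at 0 in 3 rHCI, 3 PBS and 4 Sham libraries.

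Lyz2, lysozyme M (ENSMUSG00000069516, GRCm38 chromosome 10, 117277331 to 117282321, minus strand), cuts bacterial cell walls and is a standard gene of macrophages and neutrophils. It had 375, 410.0, 403, 314 and 388 CPM in rHCI 1, 3, 7, 11 and 13, 439.7, 418, 441, 457 and 323 CPM in PBS 2, 6, 9, 12 and 14, and 79.9, 83.01, 84.03, 87.5 and 72.6 CPM in Sham 16, 17, 18, 19 and 20. It was the most evenly expressed of the 8 genes in PBS and Sham hearts, with coefficients of variation of 12.96% and 6.91%, and PBS 14 stood below the other PBS hearts. The log2 fold change of PBS over Sham was 2.35 ± 0.09, with an adjusted p of 4.35e-10 by edgeR. Lyz1, the gut lysozyme gene beside it on chromosome 10, also rose, by 3.17 ± 0.28. The 2 genes share sequence, with 15.4% of the 50-base stretches of Lyz2 also in Lyz1, so reads between them may have been split in ways the sources used here do not give. Lyz1 took 0.469% ± 0.161 of the counts of both genes in rHCI hearts, 0.521% ± 0.189 in PBS hearts and 0.302% ± 0.0757 in Sham hearts (SD, n = 5 each). An exact two-sided permutation test of that share gave p = 0.0714 between PBS and Sham, p = 0.0476 between rHCI and Sham and p = 0.603 between rHCI and PBS, and adjusted p = 0.107, 0.107 and 0.603 over the 3.

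Chil3, also known as Ym1 (ENSMUSG00000040809, GRCm38 chromosome 3, 106147554 to 106167564, minus strand), is a chitinase-like protein of alternatively activated mouse macrophages. It had 1.27, 0.884, 0.649, 7.01 and 1.79 CPM in rHCI 1, 3, 7, 11 and 13, 1.08, 1.84, 0.685, 0.502 and 0.550 CPM in PBS 2, 6, 9, 12 and 14, and 0.0542, 0.0408, 0, 0.0785 and 0.0452 CPM in Sham 16, 17, 18, 19 and 20. The library rHCI 11 was 6.10 times the mean of the other 4 rHCI libraries, and the infarcted groups overlapped apart from it. PBS over Sham gave a log2 fold change of 4.36 ± 0.54, with an adjusted p of 8.49e-06 by edgeR, and 3.89 without PBS 6. Sham values rest on 14 counts. Its neighbour Chil4, or Ym2, which shares 17.9% of the 50-base stretches of Chil3, had 3 counts over the rHCI libraries and 0 over the PBS and the Sham libraries.

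Chil1, the mouse counterpart of human YKL-40 (ENSMUSG00000064246, GRCm38 chromosome 1, 134182176 to 134190181, plus strand), is a chitinase-like glycoprotein of activated macrophages and matrix cells. It had 2.74, 2.76, 2.33, 2.45 and 2.86 CPM in rHCI 1, 3, 7, 11 and 13, 3.74, 3.98, 2.11, 2.25 and 1.40 CPM in PBS 2, 6, 9, 12 and 14, and 0.0271, 0.0612, 0.152, 0.235 and 0.203 CPM in Sham 16, 17, 18, 19 and 20. The rHCI hearts lay close together, with a coefficient of variation of 8.58%, against 41.3% in PBS hearts, and neither group overlapped with Sham. The log2 fold change of PBS over Sham was 4.29 ± 0.42, with an adjusted p of 1.10e-06 by edgeR, and 4.09 without PBS 6. Of its described binding partners, Tmem219, named after its values were seen, rose in PBS hearts by 0.58 ± 0.07 (adjusted p = 7.45e-06 by edgeR), and Il13ra2 had too few counts to be tested.

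Within the 9 PBS and Sham libraries left after PBS 6, and within the shared sequencing run, the same 7 genes passed. In the shared run the log2 fold changes of PBS over Sham were 8.63 for Saa3, 4.51 for Hp, 3.05 for Ptx3, −0.59 for Lcn2, 5.03 for Slpi, 2.38 for Lyz2, 4.12 for Chil3 and 4.32 for Chil1. With library totals in place of TMM the median of all genes moved to 0.27, and the median of the 8 genes to 4.59. Of the genes called in PBS against Sham, 51.2% were higher with TMM and 77.4% with library totals.

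The comparison of rHCI with PBS hearts asks what the hydrogel changed 2 days after injection. None of the 8 genes passed by edgeR, and 0 of 16383 genes did (0%). At an unadjusted p under 0.05 there were 579 genes, 3.53% of those tested, and 0 of the 8. DESeq2 called 6 genes and none of the 8. The rHCI and PBS libraries overlapped for all 8 genes, and 0.531% of all genes had groups without overlap.

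Saa3 averaged 16.03 ± 3.75 CPM in rHCI hearts and 16.9 ± 2.87 CPM in PBS hearts (SD, n = 5 each), a log2 fold change of −0.08 ± 0.16 with an interval of −0.44 to 0.28. For Ptx3 the means were 4.78 ± 0.974 CPM in rHCI hearts and 5.14 ± 0.773 CPM in PBS hearts, a log2 fold change of −0.10 ± 0.16 with an interval of −0.45 to 0.24. Lyz2 averaged 378 ± 38.2 CPM in rHCI hearts and 416 ± 53.9 CPM in PBS hearts, a log2 fold change of −0.13 ± 0.11 with an interval of −0.37 to 0.10. For these 3 genes the interval keeps the difference within a fold of 0.734 to 1.21. Intervals were wider for the others. Lcn2 had 0.23 ± 0.21 (−0.24 to 0.70), Slpi −0.27 ± 0.23 (−0.77 to 0.24) and Chil1 −0.03 ± 0.25 (−0.58 to 0.51). Hp averaged 18.9 ± 9.55 CPM in rHCI hearts and 17.7 ± 12.3 CPM in PBS hearts, and its interval, −0.85 to 1.06, allows a fold of 0.554 to 2.09. Adjusted p ran from 0.871 to 0.979 over the 8 genes by edgeR.

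Chil3 had the largest fitted difference, 1.30 ± 0.64 with an interval of −0.10 to 2.70, an unadjusted p of 0.0654 and an adjusted p of 0.871 by edgeR. It ranked 7th of 16383 genes by fitted rise. Without rHCI 11 the value was 0.28, so its size rests on that heart. Retnla, resistin-like alpha, which alternatively activated mouse macrophages secrete along with Chil3, was high in the same heart. It had 0.978, 0.718, 1.43, 9.43 and 1.86 CPM in rHCI 1, 3, 7, 11 and 13, 1.03, 1.07, 1.001, 0.992 and 1.22 CPM in PBS 2, 6, 9, 12 and 14, and 2.55, 2.74, 1.62, 2.18 and 2.27 CPM in Sham 16, 17, 18, 19 and 20. Retnla is named here after its values were seen. The other 4 rHCI hearts, at 0.718 to 1.86 CPM, overlapped with Sham hearts at 1.62 to 2.74 CPM. It was lower in PBS than in Sham hearts, with a log2 fold change of −1.10 ± 0.15 and an adjusted p of 1.90e-05 by edgeR. Summed macrophage and monocyte markers were 527 CPM in rHCI 11, the lowest of the rHCI libraries.

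In the shared sequencing run the log2 fold changes of rHCI over PBS were −0.16 for Saa3, 0.03 for Hp, −0.11 for Ptx3, 0.36 for Lcn2, −0.33 for Slpi, −0.13 for Lyz2, 1.92 for Chil3 and 0.15 for Chil1, and none passed. Without PBS 6 and rHCI 11 they were −0.01 for Saa3, 0.26 for Hp, 0.01 for Ptx3 and 0.51 for Lcn2. Slpi then had −0.19, Lyz2 −0.07, Chil3 0.75 and Chil1 0.19, and none passed.

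Set against Sham hearts, rHCI hearts also had higher levels of 7 of the 8 genes by edgeR, where 34.1% of 16076 genes tested were called higher, 29.7% lower and 63.9% in either direction. An unadjusted p under 0.05 was reached by 67.3%. The libraries of these 7 genes did not overlap, against 49.4% of all genes, or 27% with rHCI higher. The share of higher genes among those called was 53.4% with TMM and 79.0% with library totals, which moved the median of all genes to 0.22. This comparison uses the same Sham libraries as that of PBS with Sham, so the 2 results are not independent. The log2 fold changes were 8.78 ± 0.34 for Saa3, 4.68 ± 0.51 for Hp, 2.93 ± 0.19 for Ptx3 and 4.85 ± 0.30 for Slpi. They were 2.23 ± 0.08 for Lyz2, 4.26 ± 0.32 for Chil1 and 5.66 ± 0.87 for Chil3, which was at 4.64 without rHCI 11. Adjusted p of these 7 ran from 5.03e-09 for Lyz2 to 1.24e-04 for Chil3 by edgeR. Lcn2 had −0.08 ± 0.24, an interval of −0.60 to 0.44 and an adjusted p of 0.779, and its sign turned to 0.14 with library totals. Saa3 was at 9.66 without Sham 20. In the shared run the values were 8.48 for Saa3, 4.55 for Hp, 2.95 for Ptx3, −0.21 for Lcn2, 4.72 for Slpi, 2.26 for Lyz2, 6.05 for Chil3 and 4.48 for Chil1.

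**Figure D2:**
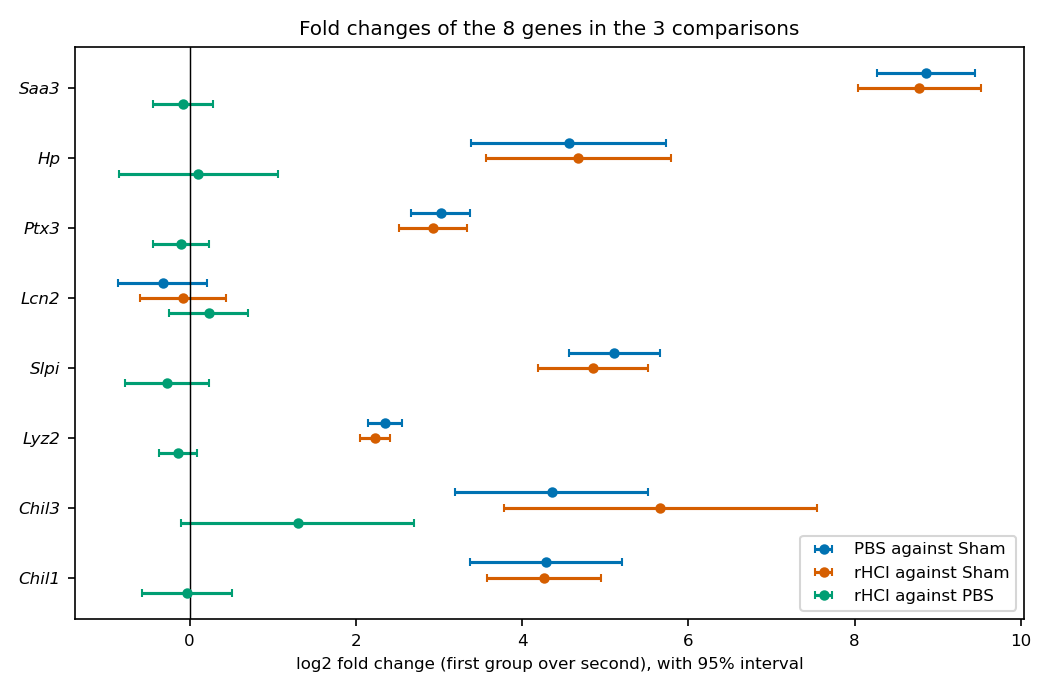
Log2 fold changes (x axis, points) with 95% intervals (bars) of the 8 genes (y axis) for PBS against Sham, rHCI against Sham and rHCI against PBS, each from 5 libraries a group. Both comparisons with Sham lie to the right of 0 for 7 genes, from 2.23 for Lyz2 to 8.86 for Saa3, and all 8 intervals of rHCI against PBS include 0.

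Per kilobase of exon, Lyz2 made up nearly all of the 8 genes' summed level, 91.5% in rHCI hearts, 92.4% in PBS hearts and 96.8% in Sham hearts. In rHCI hearts the order of mean CPM per kilobase after Lyz2 (287 ± 29.1) was Hp (11.8 ± 5.94), Saa3 (6.15 ± 1.44), Slpi (3.40 ± 1.07), Ptx3, Chil3, Lcn2 and Chil1. PBS hearts had Lyz2 (316 ± 40.9), Hp (11.04 ± 7.68), Saa3 (6.50 ± 1.10), Slpi (4.10 ± 0.997), Ptx3, Chil1, Lcn2 and Chil3. Neighbours overlapped in rHCI hearts at every step except that from Lyz2 to Hp, and in PBS hearts except from Lyz2 to Hp, from Slpi to Ptx3 and from Ptx3 to Chil1. In Sham hearts Lcn2 was second to Lyz2, at 1.18 ± 0.446 CPM per kilobase against 61.9 ± 4.27, and Saa3 was last at 0.0113 ± 0.0126. Sham neighbours overlapped except from Lyz2 to Lcn2 and from Ptx3 to Slpi. The exon union of the Saa3 model, 2606 bases, is much longer than its principal transcript of 555 bases. With principal transcript lengths, Saa3 moved ahead of Hp, to 28.9 ± 6.76 CPM per kilobase in rHCI hearts and 30.5 ± 5.16 in PBS hearts. Lcn2, with 915 bases in place of 2623, moved to rank 5 in both infarcted groups, ahead of Ptx3 but overlapping with it. Chil3 was last in each group, so the order of the lower genes depends on the length used. The share of Lyz2 was then 83.6% in rHCI hearts, 84.7% in PBS hearts and 93.1% in Sham hearts.

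Whether the 8 genes vary together among the 10 infarcted hearts was tested pair by pair. After group means were removed, 0 of 28 pairs of genes passed a two-sided permutation test of Pearson's r with 100000 resamples within groups. By Pearson's r the closest pair was Ptx3 and Lyz2, with r = 0.86 (permutation p = 0.00625, adjusted p = 0.175) and Spearman's rho = 0.79 (permutation p = 0.0134, adjusted p = 0.153). Its r was 0.96 within PBS hearts and 0.83 within rHCI hearts. It was 0.46 without rHCI 11 and PBS 14, the 2 hearts farthest from the median of Ptx3. Leaving out the farthest hearts narrows the range of Ptx3, so the drop alone cannot show that the relation rests on them. With library totals this pair alone passed, at r = 0.91 with an adjusted p of 0.0132 in the same permutation test. Lcn2 and Hp had r = 0.68 (permutation p = 0.0482, adjusted p = 0.312) and rho = 0.78 (permutation p = 0.0164, adjusted p = 0.153), and r = 0.92 without PBS 6 and PBS 9. By Spearman's rho the closest pair was Lcn2 and Chil1, with rho = 0.88 (permutation p = 0.00501, adjusted p = 0.140) and r = 0.67 (permutation p = 0.0558, adjusted p = 0.312), and r = 0.54 without PBS 6 and PBS 9.

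**Figure D3:**
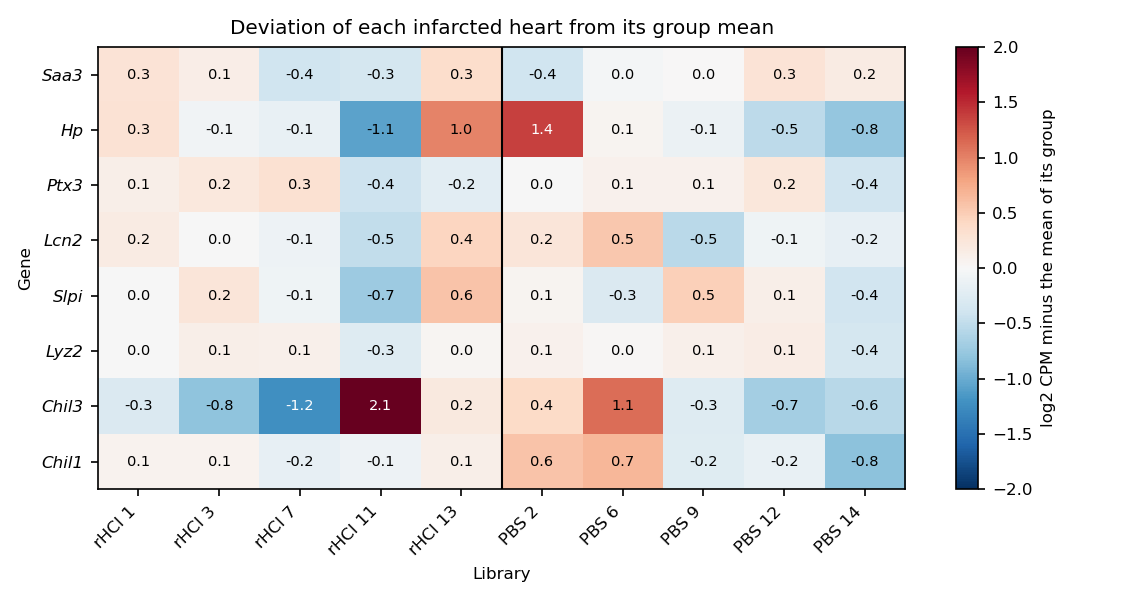
Log2 CPM (prior count 2) of the 8 genes (rows) in each infarcted library (columns, rHCI left and PBS right) minus the mean of its group, as colour and number. Chil3 spreads most within rHCI, with rHCI 11 far above its group, Hp is high in PBS 2 and rHCI 13, and Chil1 lies close to the group mean in all 5 rHCI libraries.

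Genes among the 3 most like each of the 8 in these deviations, among 12549 genes at 1 CPM or more on average, are given as a description, since the highest of so many values over 10 hearts are high by selection. For Chil3 they included Cxcl9, a chemokine induced by interferon gamma (Pearson's r = 0.99), and Myrip (0.94). Cxcl9 had 4.23, 3.76, 3.63, 7.80 and 4.65 CPM in rHCI 1, 3, 7, 11 and 13 and 5.59, 6.42, 4.32, 4.08 and 4.15 CPM in PBS 2, 6, 9, 12 and 14, with rHCI 11 the highest and PBS 6 next. Nearest to Hp were Evi2a (0.95), Slfn4 (0.94) and Cpz (0.94). Ptx3 was nearest to Sf3b4, Gpsm3 and Blvrb (0.98 each), and Lyz2 to Hoxb3, Pdpn and Hmgn1 (0.98, 0.98 and 0.97). Near to Slpi were Gjb5 and the leukocyte integrin gene Itgb2 (0.92 and 0.91), and near to Lcn2 were Tesk2 and Nmrk1 (0.96 and 0.89). Saa3 was nearest to Cwc22, Btc and Tdrp (0.90, 0.89 and 0.86), and Chil1 to Rfng, Taf6l and Mpdu1 (0.93, 0.90 and 0.89). Without PBS 6, 14 of the 24 nearest genes were again among the nearest 3. Those of Chil1 were not, and its nearest were then Cd180, Tube1 and H2-M3 (0.97, 0.96 and 0.95).

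Other acute-phase genes were read against the 8. Like the 8 genes, the lists read from here on were chosen with earlier results of these data known. Their counts beside those of all genes are descriptions. Of 32 listed, 17 had enough counts to be tested in PBS against Sham, of which 11 were higher and 2 lower by edgeR, with a median log2 fold change of 0.92. Among all genes tested 36.5% were called higher, 34.9% lower and 71.4% in either direction, so the 13 called of 17 are near the share over all genes. Serpina3n, a serine protease inhibitor, had 74.1 ± 21.7 CPM in rHCI hearts, 64.6 ± 28.6 CPM in PBS hearts and 3.61 ± 0.433 CPM in Sham hearts, a log2 fold change of PBS over Sham of 4.17 ± 0.26 (adjusted p = 1.56e-08). Cd14, a coreceptor of endotoxin, rose by 1.92 ± 0.11, the endotoxin binding protein gene Lbp by 1.11 ± 0.07 and the C1 inhibitor gene Serping1 by 1.45 ± 0.06. The 2 lower genes were the copper carrier gene Cp, ceruloplasmin (−0.40 ± 0.07), and the metallothionein gene Mt1 (−0.49 ± 0.10), both named for being the only 2, and neither passed with library totals (adjusted p = 0.108 for Cp and 0.0513 for Mt1 by edgeR). The 15 genes not tested had 368 counts in all 15 libraries together. Apcs was at 0 in each of them, and albumin, Alb, had 4 counts over the rHCI libraries, 3 over the PBS libraries and 2 over the Sham libraries. Crp had 6 over rHCI, 2 over PBS and 20 over Sham libraries.

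Of 32 other secreted defence genes 14 were tested, of which 10 were higher and 2 lower in PBS against Sham, against 36.5% higher and 34.9% lower of all genes, with a median of 1.41. Besides Tnfaip6 and Lyz1 the rule named Wfdc17, a WAP-domain relative of Slpi (2.44 ± 0.13, adjusted p = 4.52e-09 by edgeR), and Cfp, properdin, which stabilises complement (1.31 ± 0.10). Wfdc17 had 9.62 ± 2.33 CPM in rHCI hearts, 9.30 ± 1.49 CPM in PBS hearts and 1.72 ± 0.216 CPM in Sham hearts. The 2 lower genes were Retnla, given above, and Wfdc1 (−0.33 ± 0.07), which did not pass with library totals (adjusted p = 0.518 by edgeR). The granule genes of this list were scarce, with Camp, Ngp, Ltf, Mpo and Elane among the 18 not tested. Prtn3, a granule protease gene also under 1 CPM, was tested and called higher in PBS than in Sham hearts. With 13 counts over the Sham and 124 over the PBS libraries, it passed the count filter only through the PBS hearts. Its call is therefore in part set by that filter. It had 0.296 ± 0.133 CPM in rHCI hearts, 0.342 ± 0.190 CPM in PBS hearts and 0.0400 ± 0.0223 CPM in Sham hearts.

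Among inducers and signal transducers of acute-phase genes, 29 of 30 were tested in PBS against Sham, and 25 were higher and 3 lower, against 36.5% higher and 34.9% lower of all genes, with a median of 1.09. With RLE factors 24 were higher. Il6 itself had 0.831 ± 0.241 CPM in rHCI hearts, 0.913 ± 0.218 CPM in PBS hearts and 0.0280 ± 0.0214 CPM in Sham hearts, a log2 fold change of PBS over Sham of 4.91 ± 0.36 (adjusted p = 8.48e-08 by edgeR). Stat3, through which it signals, was near the threshold at 0.16 ± 0.07 (adjusted p = 0.0499), with 0.19 ± 0.08 in rHCI against Sham (adjusted p = 0.0566, not called), and Socs3, its feedback inhibitor, rose by 1.23 ± 0.14. The receptor genes Tlr2 (2.63 ± 0.09), Il17ra (1.71 ± 0.10) and Tnfrsf1a (1.09 ± 0.05) were higher. The C/EBP genes went both ways, with Cebpa and Cebpd called higher and Cebpb lower. Cebpa rose by 1.55 ± 0.10, while Cebpb had 46.4 ± 8.54 CPM in rHCI hearts, 44.9 ± 5.82 CPM in PBS hearts and 92.8 ± 22.01 CPM in Sham hearts, a log2 fold change of PBS over Sham of −1.05 ± 0.13 with an adjusted p of 1.13e-05 by edgeR. The other lower genes were Lifr (−0.86 ± 0.09) and Jak1 (−0.27 ± 0.06), and Jak1 did not pass with library totals (adjusted p = 0.943). These 3 are named as the only lower genes.

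Of 24 receptors and partners of the 8 proteins 21 were tested, and 19 were higher and 2 lower in PBS against Sham, against 36.5% higher and 34.9% lower of all genes, with a median of 1.64. Lgals3, galectin 3, had 41.8 ± 10.4 CPM in rHCI hearts, 52.9 ± 13.6 CPM in PBS hearts and 1.72 ± 0.179 CPM in Sham hearts, a log2 fold change of PBS over Sham of 4.94 ± 0.19 (adjusted p = 3.85e-10 by edgeR). The Fc receptor gene Fcgr1 rose by 2.91 ± 0.14, Itih5, of the heavy chain family that is carried on hyaluronan, by 1.78 ± 0.08, and Fpr2, a receptor of serum amyloid A, by 2.62 ± 0.43 at levels under 1 CPM. The lower genes were Cd163, given above, and the scavenger receptor gene Cd36 (−0.74 ± 0.09). In rHCI against PBS, 0 genes of these 4 lists passed by edgeR, with medians from −0.09 to 0.06. Unadjusted p by edgeR was under 0.05 for 2 of 17 acute-phase genes and 1 of 16 secreted defence genes tested. It was so for 1 of 30 inducers and signal transducers and 1 of 22 receptors and partners. Among all genes tested 3.53% reached it. The last 2 lists share Tlr2 and Tlr4.

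**Figure D4:**
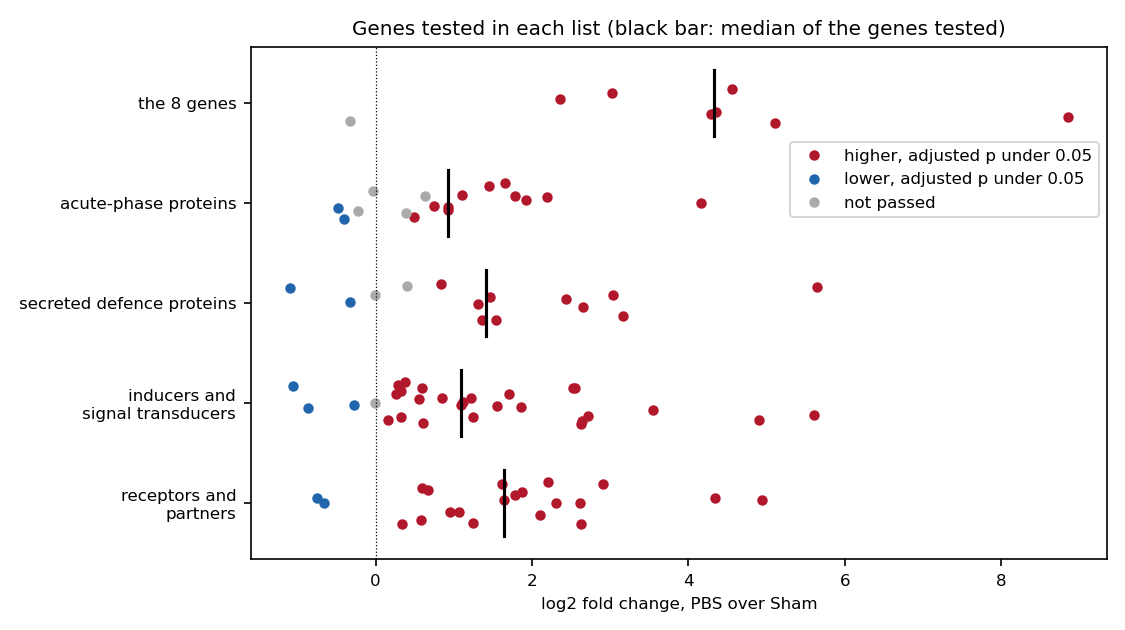
Log2 fold changes of PBS over Sham (x axis) of the genes tested among the 8 and in the 4 lists (y axis, points spread vertically for sight), coloured by the call of edgeR, with the median of the genes tested as a black bar. The medians are 4.32 for the 8 genes, 0.92, 1.41, 1.09 and 1.64 for the lists from top to bottom. Tlr2 and Tlr4 stand in both of the last 2 lists.

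Markers of cells that make these proteins were read in PBS against Sham. There, 36.5% of all genes tested were called higher and 34.9% lower. Of 12 macrophage and monocyte markers, all 12 were higher in PBS than in Sham hearts by edgeR. They summed to 527 to 654 CPM in rHCI hearts, 531 to 709.9 CPM in PBS hearts and 166 to 214 CPM in Sham hearts. Of 13 neutrophil markers 6 were tested and all 6 were higher in PBS than in Sham hearts. The 3 with the highest level were Csf3r (2.68 ± 0.21), S100a9 (2.83 ± 0.36) and S100a8 (3.33 ± 0.40), given with their log2 fold changes. A marker scarce in Sham hearts could be tested through its counts in PBS hearts alone, so this result is in part set by the count filter. The 7 markers not tested had 529 counts in all 15 libraries together. The neutrophil sums were 11.2 to 24.3 CPM in rHCI hearts, 11.99 to 28.1 CPM in PBS hearts and 1.71 to 3.39 CPM in Sham hearts. The defining neutrophil gene Ly6g had at most 6 counts in any library and was at 0 in 1 rHCI, 2 PBS and 4 Sham libraries. The part of these cells in the rise of the 7 genes was not tested.

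Markers of the surface lining of the heart and of scar cells were also read, beside the shares over all genes tested. Those were 36.5% higher and 34.9% lower in PBS against Sham, and 34.1% higher in rHCI against Sham. All 11 mesothelial markers were higher in PBS than in Sham hearts, and 10 of 11 in rHCI than in Sham hearts, where Wt1 did not pass (adjusted p = 0.0714 by edgeR). Their sums were 78.6 to 143 CPM in rHCI hearts, 77.7 to 146 CPM in PBS hearts and 25.8 to 39.6 CPM in Sham hearts. In PBS against Sham, of 10 fibroblast markers 9 rose and 1, Gsn, fell, and Gsn did not pass with library totals (adjusted p = 0.551 by edgeR). Fibroblast sums were 14455 to 22633 CPM in rHCI hearts, 15775 to 22472 CPM in PBS hearts and 2549 to 2963 CPM in Sham hearts. Of 10 adipocyte markers 9 were tested, with 0 higher and 3 lower although their median was 0.39, and of these 3, Cidea and Fabp4 did not pass with library totals (adjusted p = 0.710 and 0.673 by edgeR). The part of these cells in the results was not tested. Of 10 cardiomyocyte markers 9 were lower in PBS than in Sham hearts. The 10 liver markers summed to 19.5 to 24.1 CPM in rHCI hearts, 17.7 to 24.8 CPM in PBS hearts and 8.44 to 10.2 CPM in Sham hearts. Of these, 3 were tested in PBS against Sham. Trf, transferrin, was higher (1.32 ± 0.09), and Apoa2 (−0.49 ± 0.15) and Ttr (−0.84 ± 0.29) were lower, and neither of the lower genes passed with library totals (adjusted p = 0.216 for Apoa2 and 0.0914 for Ttr by edgeR). Albumin, the defining liver marker, had at most 2 counts in any library. The part of liver transcripts in the results was not tested.

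**Figure D5:**
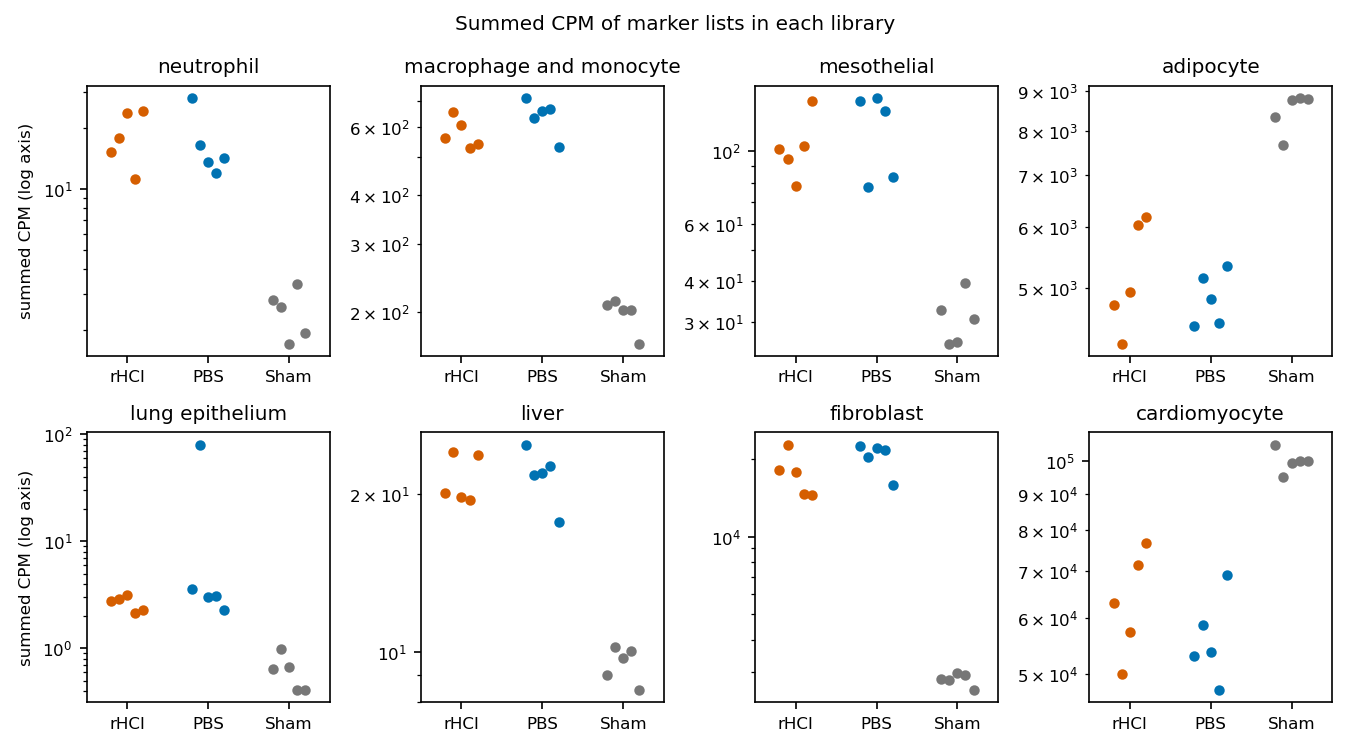
Summed CPM of the marker lists (y axis, logarithmic, a scale per panel) in each library of the rHCI, PBS and Sham groups (points, in order of replicate number). Macrophage, neutrophil, mesothelial, fibroblast, lung epithelium and liver sums lie higher in all infarcted libraries than in Sham. PBS 6 stands far above all other libraries for lung epithelium at 79.8 CPM.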

How the data were processed

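Stranded messenger RNA libraries of left ventricle, 5 per group, were prepared, per the labels. The deposited values are raw counts per gene, whole numbers without normalization, in 1 table for the 15 libraries. Tools named by the submitters' processing notes are STAR, Trimmomatic, edgeR and Cufflinks, and builds GRCm38 and mm10. Which program counted reads, and its strand setting, is not given in the sources used here, so reads shared by overlapping or near-identical genes are uncertain.

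Groups came from the sample titles. The series' design text calls the libraries biological replicates. Nothing names the animal behind each library, so p-values rest on the spread among libraries, which may be technical. Over 30 replicate pairs the lowest chi-square per gene was 11.3, over genes with at least 100 counts in the pair, so none was taken for a repeat. Each pair of groups was fitted on its 10 libraries with edgeR 4.0.16 in R 4.3.3 (TMM, filterByExpr, glmQLFit, glmQLFTest, two-sided), adjusted over all genes tested with a threshold of 0.05. The count filter keeps a gene with enough counts in 1 group alone. Genes nearly absent from Sham hearts can thus be tested through the infarcted group, while genes scarce in both groups drop out. Intervals are 95% and errors of log2 fold changes are SE. CPM uses TMM factors of all 15 libraries, and log2 CPM a prior count of 2. Totals ran from 32978702 to 103356830 counts. After TMM scaling, 3 counts make 0.0814 CPM in PBS 2 and 0.0277 CPM in PBS 6, the highest and the lowest such values. Intervals of fold changes carry the spread between libraries as well. The scripts were tested on simulated counts. Gene positions are from GENCODE M21 (GRCm38), start regions from RefSeq. No protein sequence was used.

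The 8 genes and all lists were chosen with earlier results of these data known. Named by rule were the 8 genes, of each list up to 4 genes of at least 1 CPM with the smallest adjusted p in PBS against Sham, counterparts of the 8 proteins, the 3 nearest genes of each, and of marker lists up to 3 genes with the highest level. Of the nearest genes, 3 are not reported here. Alternatives were RLE factors, library totals, DESeq2 1.42.0, other count filters, 1 fit of all 15 libraries, a covariate for the sequencing run, the shared run alone, and each replicate left out. In the comparisons that include PBS hearts, each other run held a single library. There the covariate comes close to keeping the shared run alone. Columns matched to no sample numbered 0. Leaving out PBS 6 with rHCI 11, and the principal transcript length, were added after the data were seen.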

Additional observations from a re-analysis of the deposited data

Results flagged for a closer look

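Each of the 8 genes was examined in each group of 5 libraries for a library set off from the rest, 24 sets in all, and chance alone marks about 1 set in 20. In 3 sets a library stood off. Chil3 had 7.01 CPM in rHCI 11, against 0.649 to 1.79 CPM in the other rHCI libraries. Hp had 39.2 CPM in PBS 2, against 8.91 to 15.9 CPM in the other PBS libraries. Lyz2 had 323 CPM in PBS 14, against 418 to 457 CPM in the other PBS libraries. The gap to the next library was 0.821 of the group's range for Chil3, 0.769 for Hp and 0.710 for Lyz2. The last lay only just over the cutoff used. Leaving out these libraries ended no call of Chil3, Hp or Lyz2 against Sham.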

How the results depend on the processing

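Under every alternative run, each replicate left out included, 7 of the 8 genes were called in both comparisons with Sham and 0 in rHCI against PBS. Over all genes, PBS against Sham gave 11574 calls, with 11147 to 11602 when a replicate was left out and 10882 to 12214 otherwise. For rHCI against Sham, 10268 calls became 9643 to 10606 and 9222 to 11050. The 0 calls of rHCI against PBS became 6 with DESeq2 and 0 to 3 when a replicate was left out, 3 of them without rHCI 13. The cause was not tested. With library totals 1 of 28 pairs of genes passed, Ptx3 and Lyz2, in place of 0. With TMM, 0 pairs passed when a replicate was left out. Replicates were not left out of the pair tests with library totals. The principal transcript length, which shortens Saa3 and Lcn2 among others, gave Lyz2 shares of 83.6% in rHCI, 84.7% in PBS and 93.1% in Sham hearts. Among the 24 fold changes, leaving out rHCI 11 and Sham 20, or keeping to the sequencing run (1.92 for Chil3 in rHCI against PBS, with the run as covariate or alone), moved a fold by over 1.5 times. No paired analysis was possible because the groups share no replicate numbers.

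Depth limits the Sham values of Saa3, Chil3, Chil1 and Slpi, which rest on 11, 14, 43 and 44 counts over 5 libraries, so folds against Sham are loose at the upper end. Whole ventricle was ground, so the place of expression is unknown. Transcript levels do not give amounts of secreted protein, and proteins made in the liver and carried in by blood are not seen. A single time point, 2 days after injection, was sampled.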

Other observations

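Hearts at the edge of their group were so for several of the 8 genes. In the rHCI group, rHCI 11 was the lowest library for 5 of the 8 genes and the highest for 1, Chil3, while rHCI 13 was the highest for 5. In the PBS group, PBS 14 was the lowest for 5 of the 8 and the highest for 0. PBS 6, the library with lung transcripts, was the highest for 3, Lcn2, Chil3 and Chil1, and PBS 12 also for 3. The part of lung transcripts in these levels was not tested. The marker sums of rHCI 11, rHCI 13 and PBS 14 differed from list to list. Neutrophil markers summed to 11.2 CPM in rHCI 11 and 24.3 CPM in rHCI 13, the lowest and the highest of the rHCI libraries, and to 14.3 CPM in PBS 14, the median of the PBS libraries. Macrophage and monocyte sums were 527 CPM in rHCI 11 and 541 CPM in rHCI 13, the lowest and the next lowest of the rHCI libraries, and 531 CPM in PBS 14, the lowest of the PBS libraries. Cardiomyocyte sums were 71235 CPM in rHCI 11 and 76701 CPM in rHCI 13, the highest pair of the rHCI libraries, and 69082 CPM in PBS 14, the highest of the PBS libraries. Fibroblast sums were 14550.1 CPM in rHCI 11 and 14455 CPM in rHCI 13, the lowest pair of the rHCI libraries, and 15775 CPM in PBS 14, the lowest of the PBS libraries. The library PBS 2, which stood off for Hp, had the highest neutrophil sum of all, 28.1 CPM. The part of these cells in the levels of the 8 genes was not tested.

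Among the genes of the lists not described above, Fpr1, a receptor of bacterial peptides, and Il1rn, the interleukin 1 receptor antagonist, both outside the rule and named after their values were seen, rose by 4.35 ± 0.53 and 5.61 ± 0.55 on the log2 scale in PBS against Sham by edgeR.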
